A study of Mus musculus with 6 samples.

Results

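The genes described here are 10 members of the Notch pathway among the 32285 genes counted in each of 3 single-cell libraries of mouse quadriceps muscle. They were chosen by name, as 4 receptors (Notch1, Notch2, Notch3 and Notch4), 2 ligands (Dll4 and Jag1), 3 target genes (Hey1, Heyl and Hes1) and Dlk1. All 10 were detected, with totals over the 7901 cells kept that ran from 422 counts for Heyl to 2140 for Dlk1. Notch1 had 1332 counts in all, Notch2 had 733, Notch3 had 1340 and Notch4 had 612. Dll4 had 877, Jag1 had 639, Hey1 had 754 and Hes1 had 1265.

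Notch receptors are surface proteins that are cut when a ligand on a neighbouring cell binds them, and the freed inner part moves to the nucleus, where it joins the DNA-binding protein Rbpj and switches on genes of the Hes and Hey families. In blood vessels Dll4 and Notch1 act between neighbouring endothelial cells during sprouting and arterial specification, while Jag1 on endothelium and Notch3 on mural cells (pericytes and smooth muscle cells, which wrap vessels) act between the layers of the wall. In skeletal muscle Notch keeps satellite cells, the stem cells of the fibres, from differentiating, and Heyl is one of their target genes. Dlk1 is a surface protein of the same epidermal growth factor-like family that lacks the domain by which the classical ligands bind receptors, and it is known from preadipocytes, fetal tissues and regenerating muscle.

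The study measured transcripts and surface proteins in the same cells (CITE-seq, in which antibodies carry readable DNA tags) from the left quadriceps of wild-type male C57BL/6 mice aged 2-3 months. The 3 groups were uninjured muscle, muscle with a subcritical defect of 2 mm, and muscle with a critical defect of 3 mm, termed volumetric muscle loss, both taken at day 7. Each group had 4 animals, whose cells were tagged with hashtag antibodies and pooled into 1 library per group, so that group, pool and library cannot be told apart. Muscles were freed into single cells by collagenase and dispase, which leaves muscle fibres out of the suspension, and the antibody panel of 142 features holds 0 antibodies to a Notch pathway protein.

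The deposited files held 2195, 3071 and 3161 cell barcodes for the uninjured, subcritical and critical libraries, of which 2134, 2755 and 3012 passed the filters. These cells had median depths of 1805.5, 1277 and 1589 UMIs, where a UMI is 1 counted transcript molecule. Between 10 and 16 barcodes recurred in each pair of libraries. Classes are named "-like" because clusters were named from marker genes. Vessel wall cells, fibro-adipogenic progenitors (FAP, the interstitial fibroblasts of muscle), tenocytes, myogenic cells and immune cells were found in all 3 libraries, with FAP-like cells at 200, 807 and 977, endothelial-like at 1304, 600 and 626, mural-like at 247, 154 and 209 and myogenic-like at 28, 98 and 120. All 10 endothelial markers and all 10 mural markers had counts in the class of that name in every library, as did at least 8 of 9 myogenic markers. Only 947, 1227 and 1164 cells could be given to 1 animal. Between-animal tests were possible for endothelial-like cells and, between the injured groups, for macrophage-like cells. Everywhere else a level is 1 library's sum as counts per 1000000 UMIs of the class (CPM) with an exact Poisson interval, and a fold is a difference of log2(CPM + 1) with an exact binomial interval, both at 95% and covering counting error only.

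Most of the members were concentrated in 1 or 2 cell classes. Notch4, Dll4 and Hey1 were highest in endothelial-like cells in all 3 libraries, Notch3 and Jag1 in mural-like cells, and Dlk1 in FAP-like and mural-like cells. Notch1 was shared by endothelial-like and myogenic-like cells, and Heyl by mural-like and myogenic-like cells. Hes1 was found in endothelial-like, mural-like, FAP-like, tenocyte-like and myogenic-like cells of every library. Notch2 was found in macrophage-like and dendritic-like cells. Macrophage-like cells also had Notch1, at means of 30.5 and 39.4 CPM in subcritical and critical animals beside 82.7 and 69.1 CPM of Notch2.

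**Figure D1:**
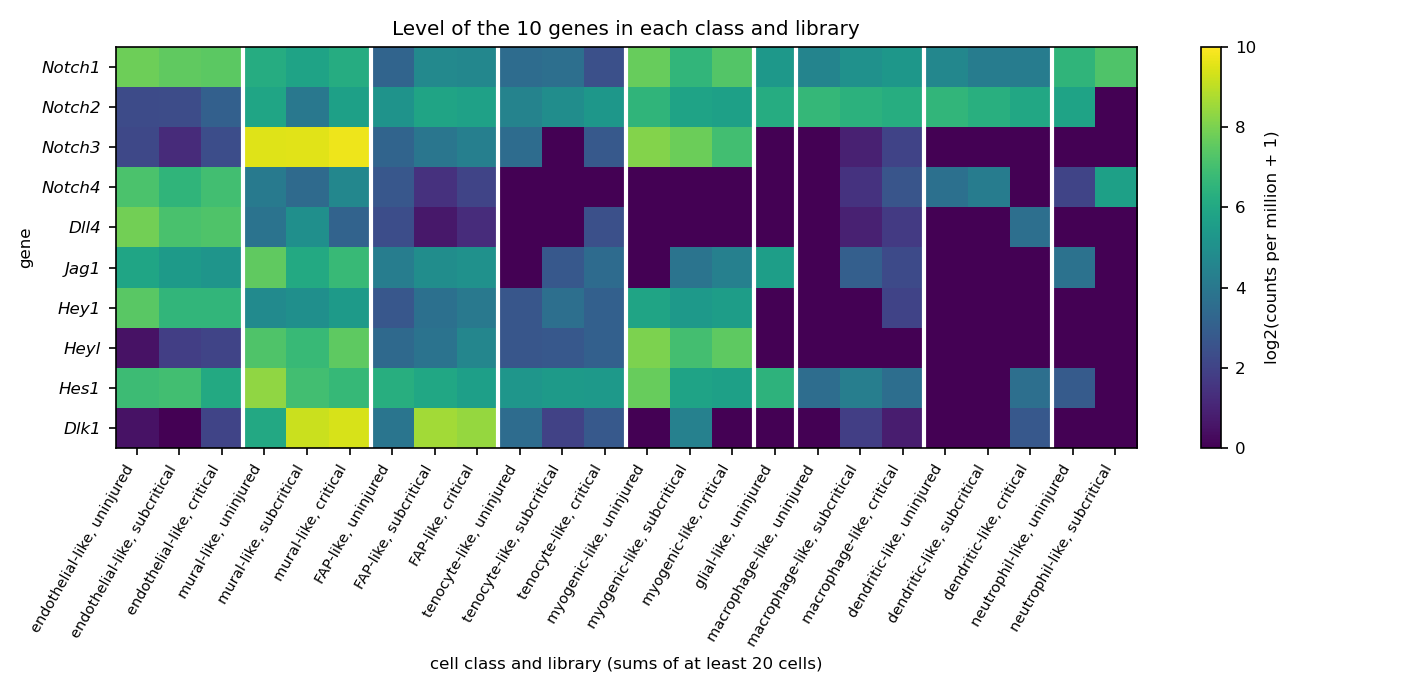
Heat map of the level of each of the 10 genes, as log2(CPM + 1), in every class-and-library sum of at least 20 cells. The vessel genes Notch4, Dll4 and Hey1 stand out in endothelial-like sums, Notch3 and Jag1 in mural-like sums, and Dlk1 in the mural-like sums and the injured FAP-like sums.

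The pathway's DNA-level mark is the core that Rbpj binds, GTGGGAA, which was searched on both strands in the windows from 250 bases before to 50 bases after each gene start (RefSeq, GRCm38.p6). Windows were given for 7 of the 10 members, and Hey1, Heyl and Hes1 had none. The letters occur in 0 of those 7 windows, in 3 of 5 further Notch target genes (Hes5, Hes7 and Hey2, against Hes6 and Nrarp without it) and in 2097 of all 32851 windows (6.38%). The window of Hey2, the arterial and smooth muscle relative of Hey1 and Heyl, is shown because it holds the core on both strands. It lies on the minus strand at chr10:30842734-30843033, and capitals mark the matches.

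Hey2 promoter window: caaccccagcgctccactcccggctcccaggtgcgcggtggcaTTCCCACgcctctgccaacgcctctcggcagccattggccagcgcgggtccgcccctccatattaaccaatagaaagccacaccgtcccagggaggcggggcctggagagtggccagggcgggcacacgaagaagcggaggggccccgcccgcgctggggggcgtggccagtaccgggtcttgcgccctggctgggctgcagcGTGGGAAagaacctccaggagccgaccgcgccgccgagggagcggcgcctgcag

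The first match reads on the opposite strand 207 bases before the start and the second on the gene's own strand 4 bases before it. A match is a stretch of letters and not a measured site. Hey2 itself had 61, 3 and 7 counts in smooth muscle-like cells of the uninjured, subcritical and critical libraries (80.9, 47.1 and 88.2 CPM). It stood at 5.73, 14.9 and 10.1 CPM in pericyte-like cells.

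Notch3, the receptor of mural cells, was high in mural-like cells of all 3 libraries. Its level in mural-like cells was 729 CPM (675 to 786) in the uninjured library, 756 (640 to 887) in the subcritical and 861 (770 to 961) in the critical library, from 677, 150 and 323 counts. The subcritical interval overlaps both others, and the critical and uninjured intervals also overlap. The critical library was 0.24 higher than the uninjured on the log2 scale (0.05 to 0.43), a difference that has no replicate check and was 0.07 with library sums scaled by TMM, a normalization that trims the most changed genes. In endothelial-like cells the same gene stood at 3.54, 1.32 and 4.18 CPM, and in dendritic-like, neutrophil-like and glial-like cells it had 0 counts.

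The mural class holds 2 clusters whose proportions differed between libraries. Pericyte-like cells made up 23.5% of the class in the uninjured library, 66.9% in the subcritical and 74.2% in the critical library, and smooth muscle-like cells the rest. Notch3 was high in both. Pericyte-like cells had 631, 736 and 869 CPM, with the critical library 0.46 higher than the uninjured (0.14 to 0.80), and smooth muscle-like cells had 752, 800 and 831 CPM. Of mural-like cells, 76.5%, 55.2% and 72.2% had a UMI of Notch3. After each cell was thinned to 1000 UMIs, which kept 205, 92 and 159 cells, the shares were 50.7%, 48.9% and 57.2%. Endothelial-like cells, which should lack the gene, had 0.690%, 0.167% and 0.479% unthinned. Thinned, they had 0.518% in the uninjured library and 0.289% in the critical, and 0 of 276 cells in the subcritical, where 3 cells, the limit used for a count of 0, would be a share with a UMI of 1.09%.

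Myogenic-like cells were the only other class with Notch3 above 100 CPM in every library. Its level was 279 CPM (156 to 460) in uninjured muscle, 217 (148 to 306) in the subcritical and 123 (84.2 to 174) in the critical library, from 15, 32 and 32 counts. The critical library was 1.17 log2 units below the uninjured, with an interval from -2.11 to -0.19. TMM scaling, which moved the critical against uninjured folds of this class by 0.31, gave a difference of -0.87. The counts came from 1 of the myogenic-like clusters above all, an unnamed one in which Notch3 reached 593, 562 and 260 CPM from 5, 35 and 33 cells. In the cluster with the markers of differentiating myoblasts, which withdraw from the stem cell state, there were 0, 0 and 2 counts from 1, 23 and 29 cells. The makeup of the class differed between libraries. An unnamed cluster led by Fosb, Hspa1a and Nppc was 67.9% of the class in the uninjured library, 4.08% in the subcritical and 7.50% in the critical. The part of this makeup in the myogenic-like folds of Notch3 and the other members was not tested.

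Notch1, the receptor of endothelial and satellite cells, stood at 223 CPM (205 to 242) in uninjured endothelial-like cells, 185 (156 to 219) in the subcritical and 176 (150 to 204) in the critical library. Within the endothelium it was present in the 4 named sub-clusters with at least 20 cells in every library. A lymphatic-like sub-cluster of 7, 15 and 13 cells had 4, 4 and 2 counts. Arterial-like cells had 290, 321 and 402 CPM, capillary-like 200, 321 and 246, sprouting-like 153, 161 and 158, and venous-like 124, 137 and 113. In all 3 libraries the sub-cluster order ended with sprouting-like and then venous-like cells, but the intervals of these neighbours overlapped in each (127 to 201 against 81.1 to 216 CPM in the subcritical library). Myogenic-like cells had 204, 94.8 and 158 CPM from 11, 14 and 41 counts, and mural-like cells 72.1, 55.5 and 72.0 CPM.

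Among immune cells, Notch1 reached 92.5 CPM in neutrophil-like cells of uninjured muscle, from 29 counts in 117 cells, a class with 20 and 4 cells in the injured libraries. In FAP-like cells Notch1 was low, at 8.26, 24.9 and 23.9 CPM from 6, 44 and 69 counts. The injured libraries stood 1.49 (0.36 to 3.12) and 1.43 (0.34 to 3.03) log2 units above the uninjured.

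Notch4, a receptor found mainly on endothelium, had 144 CPM (130 to 159), 91.3 (71.1 to 116) and 124 (103 to 149) in endothelial-like cells of the uninjured, subcritical and critical libraries. It was near 0 in venous-like cells, with 4, 3 and 0 counts in 130, 121 and 97 cells. Arterial-like cells had 196, 168 and 308 CPM, capillary-like 145, 148 and 137, and sprouting-like 122, 99.5 and 130. Tenocyte-like, glial-like and myogenic-like cells had 0 counts of Notch4 in every library.

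Notch2 was spread over several classes outside the vessel lining. It stood at 99.4, 85.9 and 74.2 CPM in macrophage-like cells, at 94.7, 77.9 and 63.4 in dendritic-like cells and at 34.4, 55.6 and 52.0 in FAP-like cells. Endothelial-like cells had 3.93, 3.97 and 7.32 CPM. The mural-like level was 58.1 CPM in the uninjured library, 15.1 in the subcritical and 50.7 in the critical, but the middle value rests on 3 counts. In uninjured muscle the glial-like level was 71.7 CPM, from 9 counts.

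Dll4, the ligand of arterial and sprouting endothelium, had 233 CPM (214 to 252) in uninjured endothelial-like cells, 139 (114 to 168) in the subcritical and 149 (125 to 175) in the critical library, from 592, 105 and 142 counts. The uninjured library was highest and its interval did not meet the other 2. The log2 folds were -0.74 (-1.06 to -0.44) for subcritical and -0.65 (-0.92 to -0.38) for critical against uninjured. The share of endothelial-like cells with a UMI was 28.7%, 13.3% and 16.6%, and after thinning to 1000 UMIs it was 20.1%, 9.06% and 15.6%. FAP-like cells, where the gene should be absent, had 1.50%, 0.124% and 0.409% unthinned, at median depths of 3192, 1986 and 2641 UMIs against 1535, 954 and 1089.5 in endothelial-like cells.

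The makeup of the endothelial class also differed between libraries. Capillary-like cells were 57.8% of it in the uninjured library and 8.67% and 15.2% in the subcritical and critical, and arterial-like cells 24.5%, 9.67% and 11.3%. Sprouting-like cells went the other way, from 2.22% to 55.2% and 53.2%. Within the arterial-like sub-cluster Dll4 stood at 361, 447 and 355 CPM, and within sprouting-like cells at 153, 129 and 148. In venous-like cells it had 2, 0 and 3 counts. In capillary-like cells it was 212 and 222 CPM in the uninjured and subcritical libraries and 137 in the critical. With each library's sub-clusters weighted by their uninjured shares, an alternative chosen after the data were seen, the Dll4 fold became 0.18 for subcritical and -0.27 for critical against uninjured.

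**Figure D2:**
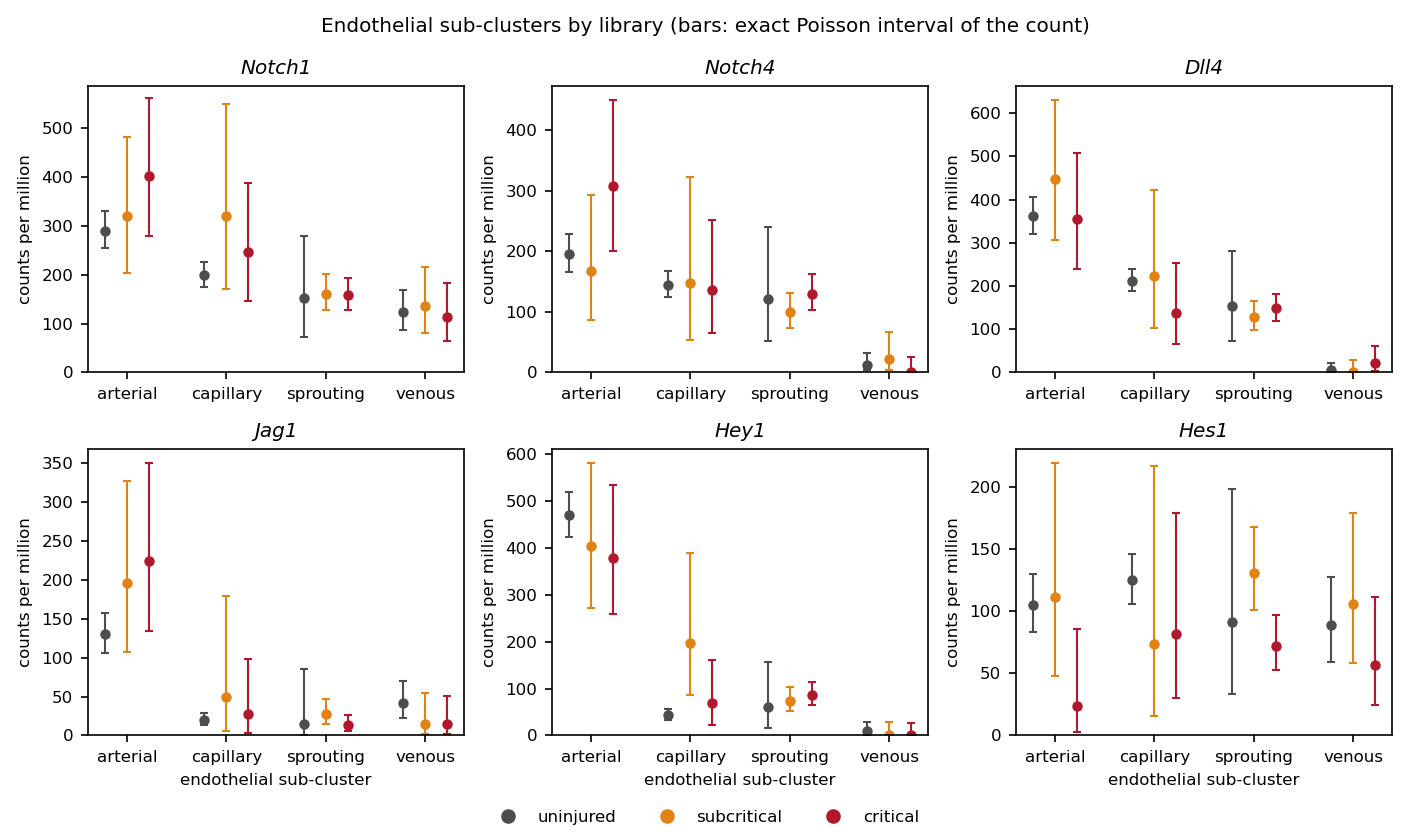
Level in CPM of Notch1, Notch4, Dll4, Jag1, Hey1 and Hes1 in the arterial-like, capillary-like, sprouting-like and venous-like sub-clusters, 1 point per library with its exact 95% Poisson interval. Hey1 and Jag1 are highest in arterial-like cells of all 3 libraries, and Dll4 and Notch4 are near 0 in venous-like cells.

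Hey1, a transcriptional repressor that Notch switches on in arterial endothelium, was mainly an arterial gene. Its level in arterial-like cells was 470 CPM (423 to 520), 405 (271 to 582) and 379 (259 to 534), from 372, 29 and 32 counts, and the 3 intervals overlap. Capillary-like cells had 43.2, 198 and 68.5 CPM, of which the injured values rest on 8 and 5 counts. Sprouting-like cells had 61.0, 74.1 and 87.2 CPM, and venous-like cells had 3 counts in the uninjured library and 0 in the others.

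Over the whole endothelial class Hey1 stood at 173, 95.3 and 94.1 CPM. The log2 fold against uninjured was -0.85 for the subcritical library and -0.87 (-1.22 to -0.54) for the critical. With the sub-cluster shares held as in the uninjured library these folds were 0.42 and -0.14. The part of the makeup in the Hey1 folds was not tested. None of the 6 or 7 members that averaged at least 5 CPM passed a log2 fold of 1 in either direction in the whole endothelial class, in any of the 3 comparisons of libraries. Over all genes, 5.61% were that much higher and 5.04% lower in the critical than in the uninjured library, 6.11% and 7.34% in the subcritical than in the uninjured, and 3.46% and 2.86% in the critical than in the subcritical.

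Between animals, 5 of the 10 members had enough counts in endothelial-like cells to be tested (Notch1, Notch4, Dll4, Hey1 and Hes1). The test used 4 uninjured, 3 subcritical and 3 critical animals with at least 20 tagged endothelial-like cells, and subcritical animal 3 and critical animal 1, with 12 and 11, were not used. None of the 5 was called at an adjusted p under 0.05 by edgeR's quasi-likelihood test or by DESeq2, in any of the 3 comparisons. Of the 2505 genes tested, edgeR called 16.9% between critical and uninjured, 17.7% between subcritical and uninjured and 0.639% between critical and subcritical. At an unadjusted p under 0.05, 1 member passed between critical and uninjured (Hes1) and 0 in the other comparisons, where 26.5% of all genes passed between critical and uninjured, 29.5% between subcritical and uninjured and 9.54% between the injured groups. Of each animal's tagged cells, capillary-like cells were 69.3% to 78.9% in uninjured, 12.2% to 24.1% in subcritical and 8.11% to 32.9% in critical animals. Sprouting-like cells were 0% to 1.75%, 52.9% to 70.3% and 45.6% to 81.1%. The part of this makeup in the changes of members and other pathway genes between animals was not tested.

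Dll4 in the uninjured animals was 259, 204, 301 and 204 CPM (242 ± 46.9, SD, n = 4). The 3 subcritical animals had 254, 105 and 145 (168 ± 77.0, n = 3) and the critical 122, 228 and 176 (175 ± 52.7, n = 3). Both injured groups overlapped the uninjured one, and edgeR gave log2 changes of -0.47 (SE 0.260, adjusted p = 0.228) and -0.44 (SE 0.253, adjusted p = 0.270). The subcritical difference passed the threshold under 2 alternatives, at -1.17 (edgeR adjusted p = 0.0463) with hashtags assigned by the leading share and at -0.85 (edgeR adjusted p = 0.0480) with cells of at least 1000 UMIs.

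Hes1, a repressor that answers Notch and other signals, was 116, 108, 150 and 123 CPM in the uninjured animals (124 ± 18.2, n = 4). It was 93.5, 126 and 76.8 in the subcritical (98.8 ± 25.1, n = 3) and 65.2, 85.3 and 87.9 in the critical animals (79.5 ± 12.4, n = 3). All 3 critical animals were below all 4 uninjured ones, while the subcritical animals overlapped both. The edgeR log2 change between critical and uninjured was -0.61 (SE 0.303), with an unadjusted p of 0.0499 and an adjusted p of 0.188. Over whole libraries the critical level was below the uninjured in the 4 named sub-clusters with at least 20 cells in every library, at 23.7 against 105 CPM in arterial-like, 82.1 against 125 in capillary-like, 72.4 against 91.5 in sprouting-like and 56.7 against 88.7 in venous-like cells. The critical values rest on 2, 6, 44 and 8 counts, and the intervals overlapped in all 4 sub-clusters.

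For Hey1 the animals' means were not lower after injury, unlike the library sums. The uninjured animals had 51.8, 137, 83.5 and 111 CPM (96.0 ± 36.7, n = 4), the subcritical 66.8, 158 and 119 (115 ± 45.6, n = 3) and the critical 106, 185 and 106 (132 ± 45.7, n = 3). The groups overlapped throughout, and the edgeR log2 changes against uninjured were 0.14 (adjusted p = 0.825) and 0.20 (adjusted p = 0.741). The tagged cells are a part of the class: arterial-like cells were 24.5% of all uninjured endothelial-like cells but 9.73% to 20.7% of the tagged cells of each uninjured animal. In the subcritical library they were 9.67% of all and 6.76% to 11.8% of the tagged cells per animal. The critical values were 11.3% and 5.41% to 12.7%. The part of this makeup in the Hey1 results was not tested.

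Of the receptors, Notch1 and Notch4 could be tested. Notch1 was 233, 197, 238 and 185 CPM in the uninjured animals, 134, 200 and 196 in the subcritical and 228, 156 and 229 in the critical, with edgeR log2 changes against uninjured of -0.15 (adjusted p = 0.803) and 0.06 (adjusted p = 0.929). Notch4 was 77.6, 150, 117 and 169 CPM in the uninjured animals, 134, 137 and 68.3 in the subcritical and 147, 185 and 176 in the critical. Its largest change was 0.59 between critical and subcritical (SE 0.339, adjusted p = 0.582), with all 3 critical animals above all 3 subcritical ones. In data simulated for the comparison of critical with uninjured animals over 2582 genes, a 2-fold change was recovered for 42.1% of 95 changed genes and a 4-fold change for 97.9% of 94. Every simulated gene had the same spread between animals and changed genes were drawn at any tested level, so these shares are not those of the members.

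**Figure D3:**
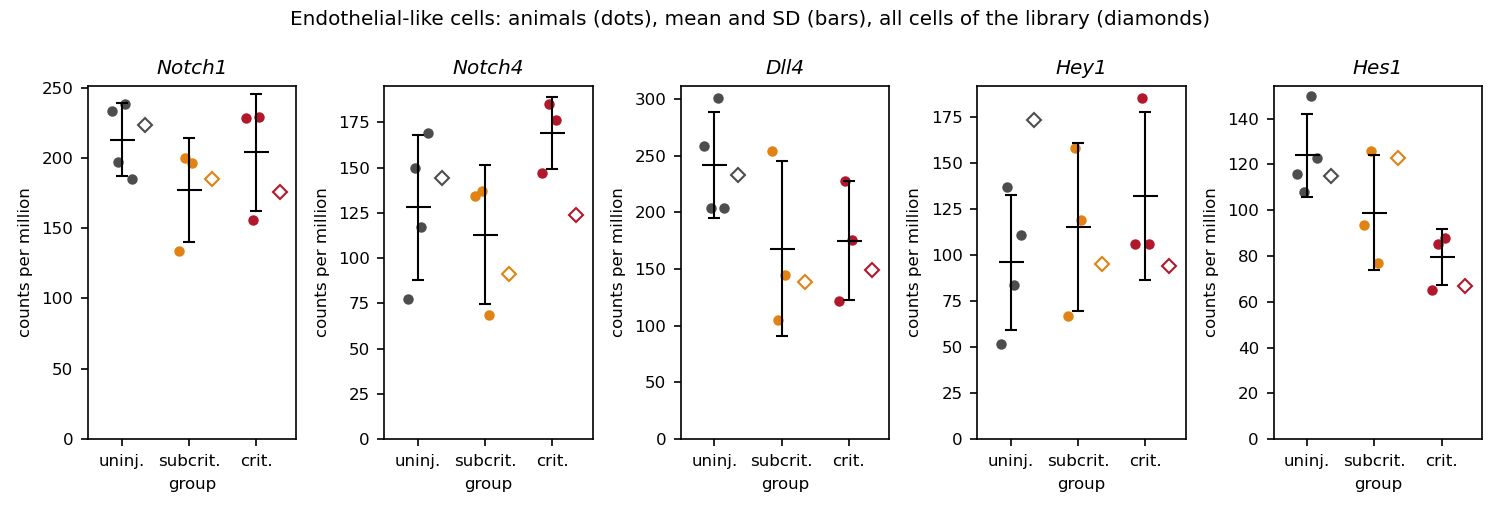
Level in CPM of the 5 tested members in endothelial-like cells, 1 dot per animal (4 uninjured, 3 subcritical and 3 critical), with bars for the mean and SD and a diamond for the whole library, tagged or not. The groups overlap for Notch1, Dll4 and Hey1, and for Hes1 the 3 critical animals lie below the 4 uninjured ones.

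Jag1, the ligand that vessel walls share, was found in mural-like and arterial-like cells. In mural-like cells it stood at 186 CPM (160 to 216), 65.5 (34.9 to 112) and 107 (76.2 to 145), from 173, 13 and 40 counts, with the uninjured library above the other 2. The log2 folds against uninjured were -1.49 (-2.44 to -0.69) for subcritical and -0.80 (-1.34 to -0.30) for critical. Smooth muscle-like cells had 203, 94.1 and 252 CPM, of which the injured values rest on 6 and 20 counts, and pericyte-like cells had 115, 52.0 and 67.7. The critical and uninjured smooth muscle-like intervals overlapped, and smooth muscle-like cells were a smaller share of the injured class. The part of that share in the Jag1 folds was not tested.

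In the endothelium Jag1 was arterial, with 130, 196 and 225 CPM in arterial-like cells against 20.1, 49.4 and 27.4 in capillary-like and 15.3, 27.5 and 13.2 in sprouting-like cells. Venous-like cells had 41.2, 15.2 and 14.2 CPM. FAP-like cells had 17.9, 28.9 and 32.3 CPM from 13, 51 and 93 counts, with a log2 fold of 0.82 between critical and uninjured (0.01 to 1.81).

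Heyl, the Notch target of mural and myogenic cells, followed Notch3 across classes. Mural-like cells had 152 CPM (128 to 179), 106 (65.5 to 162) and 184 (143 to 233), with overlapping intervals, and endothelial-like cells had 1, 2 and 3 counts in all. In pericyte-like cells the level was 126, 89.2 and 193 CPM and in smooth muscle-like cells 158, 141 and 151. Myogenic-like cells had 260 CPM (142 to 437), 129 (77.5 to 201) and 181 (133 to 240), from 14, 19 and 47 counts. The subcritical library was 1.01 log2 units below the uninjured with an interval from -2.09 to 0.09, and the critical 0.52 below. Macrophage-like, dendritic-like, neutrophil-like and glial-like cells had 0 counts of Heyl in every library.

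Hes1 showed the greatest difference of the targets between mural-like sums. The uninjured library had 326 CPM (291 to 365), the subcritical 126 (81.6 to 186) and the critical 104 (74.0 to 142), from 303, 25 and 39 counts. The log2 folds were -1.36 (-2.02 to -0.78) and -1.64 (-2.17 to -1.16), with the 2 injured libraries overlapping. Of the uninjured counts, 44.9% came from 10 cells, the highest with 34. Without the 10 top cells of each library, an alternative chosen after the data were seen, the uninjured level was 193 CPM and the folds were -1.69 and -1.53. Pericyte-like cells had 178, 119 and 71.0 CPM and smooth muscle-like cells 361, 141 and 227.

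The summed level of 15 immediate early and heat shock genes, which dissociation can switch on, moved with Hes1 in mural-like and myogenic-like cells, where both were highest in the uninjured library. In mural-like cells it was 10739 CPM in the uninjured library and 3993 and 3720 in the subcritical and critical. In myogenic-like cells it was 16113, 2445 and 2516 CPM beside 204, 54.2 and 50.0 CPM of Hes1, whose log2 folds there were -1.90 and -2.01. In endothelial-like cells it was 4661, 3704 and 3324 CPM beside 115, 123 and 66.9 CPM of Hes1. The part of this sum in these results was not tested.

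**Figure D4:**
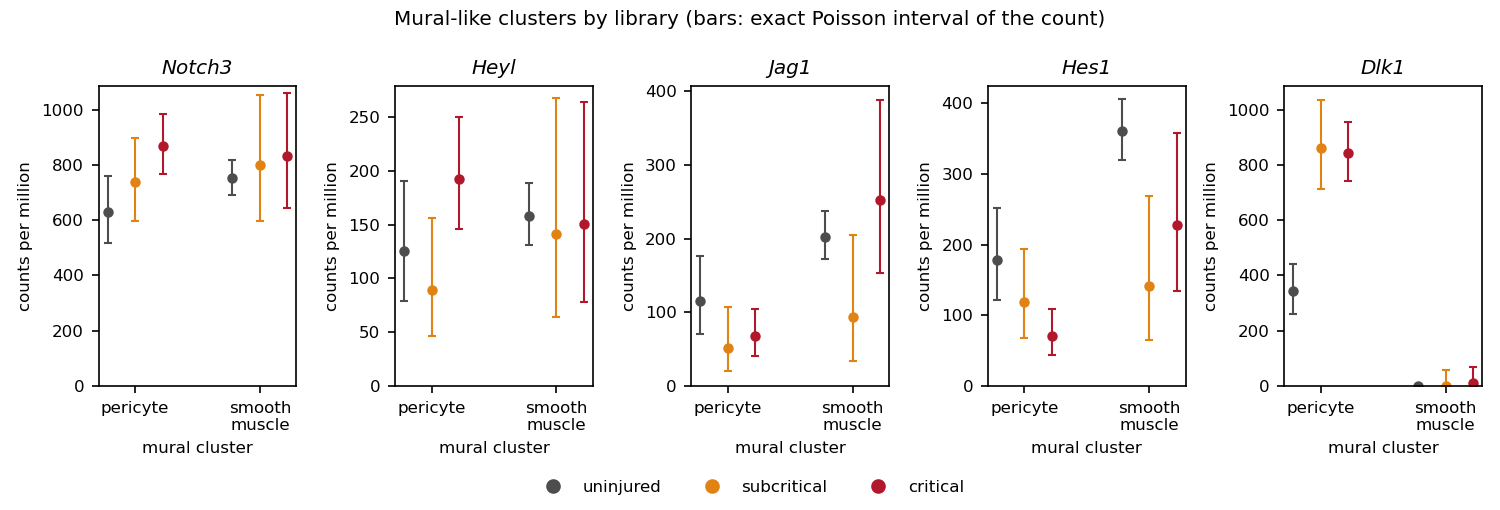
Level in CPM of Notch3, Heyl, Jag1, Hes1 and Dlk1 in pericyte-like and smooth muscle-like cells, 1 point per library with its exact 95% Poisson interval. Notch3 is high in both clusters, whereas Dlk1 is found in pericyte-like cells only, apart from 1 count in critical smooth muscle-like cells.

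Dlk1 had the largest log2 fold of the members in both FAP-like and mural-like cells. In FAP-like cells it stood at 13.8 CPM (6.60 to 25.3) in uninjured muscle, 395 (366 to 426) in the subcritical and 342 (321 to 365) in the critical library, from 10, 697 and 987 counts. The injured libraries were 4.75 (3.96 to 5.91) and 4.54 (3.75 to 5.70) log2 units above the uninjured, and the critical was 0.21 below the subcritical (-0.35 to -0.06). The last difference changed sign under 2 alternatives, to 0.23 with clusters drawn more coarsely and to 0.10 without the 10 cells richest in Dlk1. With coarser clusters the folds against uninjured were 2.77 and 3.00. The FAP-like class then held 197, 367 and 394 cells in place of 200, 807 and 977, so many injured cells left it. Both folds share the same uninjured library.

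The gene was carried by a minority of FAP-like cells. In the uninjured library 2.00% had a UMI, in the subcritical 16.2% and in the critical 20.1%, against 0.0767% of endothelial-like cells in the uninjured library, 0.479% in the critical and none of the 600 in the subcritical. Thinned to 1000 UMIs, 0 of 276 of these subcritical cells had a UMI, where 3 cells would be 1.09%. Thinned likewise, the FAP-like shares were 0.565% of 177 cells, 13.6% of 626 and 14.1% of 816. The 10 richest cells held all 10 counts of the uninjured library, 40.0% of those in the subcritical and 25.7% in the critical, and without them the injured levels were 242 and 259 CPM.

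Within the FAP-like class Dlk1 differed widely between sub-clusters of the same library. The sub-clusters were drawn without the 10 genes. The highest level was in a small unnamed sub-cluster led by Dmkn, Aqp1 and Sbsn, called FAP 6 in the plot of Dlk1, which held 0, 39 and 52 cells. It had 1475 CPM (1276 to 1697) in the subcritical and 1327 (1178 to 1489) in the critical library, where 38.5% and 65.4% of its cells had a UMI. Resting interstitial fibroblast-like cells had 575 and 547 CPM and activated fibroblast-like cells 287 and 212 in the 2 injured libraries, and these sub-clusters held only 5 and 2 uninjured cells. The name resting is weakly held, as the markers of that list averaged 0.44 log2 units above the rest of the class and 5 were detected. A low-depth unnamed sub-cluster had 87.6 and 187 CPM, and a small one led by macrophage and antigen presentation genes (Cd74, H2-Aa and Lyz2), with 23 and 17 cells, had 494 and 250.

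Few sub-clusters held enough uninjured cells for a comparison inside them, and 1 was that of the universal progenitor fibroblast-like cells, with 45, 112 and 95 cells. Dlk1 had 0 counts there in the uninjured library, where 3 counts would be 17.2 CPM, and 124 CPM (81.1 to 182) and 95.0 CPM (60.9 to 141) in the injured libraries from 26 and 24 counts. All 10 uninjured counts were in another, unnamed sub-cluster led by Prg4, Myoc and Gsn, which had 22.9, 29.8 and 0 CPM from 104, 52 and 63 cells. This sub-cluster scored higher on the resting interstitial list (1.28, with 7 markers detected). It was left unnamed because none of those markers was among its top genes. Its injured values rest on 2 and 0 counts, where 3 counts would be 44.7 and 26.9 CPM.

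In the vessel wall Dlk1 was a pericyte gene. Pericyte-like cells had 344 CPM (262 to 443), 862 (712 to 1034) and 842 (741 to 954), from 60, 116 and 249 counts, with log2 folds against uninjured of 1.32 (0.86 to 1.80) and 1.29 (0.88 to 1.72). The critical and subcritical libraries differed by -0.03. Smooth muscle-like cells had 0, 0 and 1 counts. The folds over the whole mural class were 3.16 for subcritical and 3.35 for critical, beside the larger share of pericyte-like cells in the injured class. The part of that share in these folds was not tested. In pericyte-like cells too a few cells held much of the signal: 10 cells held 86.7%, 54.3% and 48.6% of the counts, and without them the levels were 60.7, 448 and 475 CPM.

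Fibroblast markers were read beside this because FAP-like cells also carry Dlk1. The summed level of the 10 FAP markers in pericyte-like cells was 2488, 4949 and 7946 CPM, from 7, 8 and 8 detected markers, against 68120, 53654 and 50566 CPM in FAP-like cells. Col1a1, a fibrillar collagen chain, was 287, 1256 and 3065 CPM in pericyte-like cells, and Dcn, a matrix proteoglycan, was 11.5, 22.3 and 67.7 CPM, both highest in the critical library. Pdgfra, the defining surface receptor of FAPs, had 0 counts in pericyte-like cells of every library, but was only 340, 128 and 138 CPM in FAP-like cells. In pericyte-like cells the level of Dlk1 was above that of the whole FAP-like class in each library, at 344 against 13.8, 862 against 395 and 842 against 342 CPM. It was below that of the small FAP-like sub-cluster led by Dmkn, Aqp1 and Sbsn in the subcritical and critical libraries. The part of FAP-derived RNA in the pericyte-like Dlk1 levels was not tested.

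**Figure D5:**
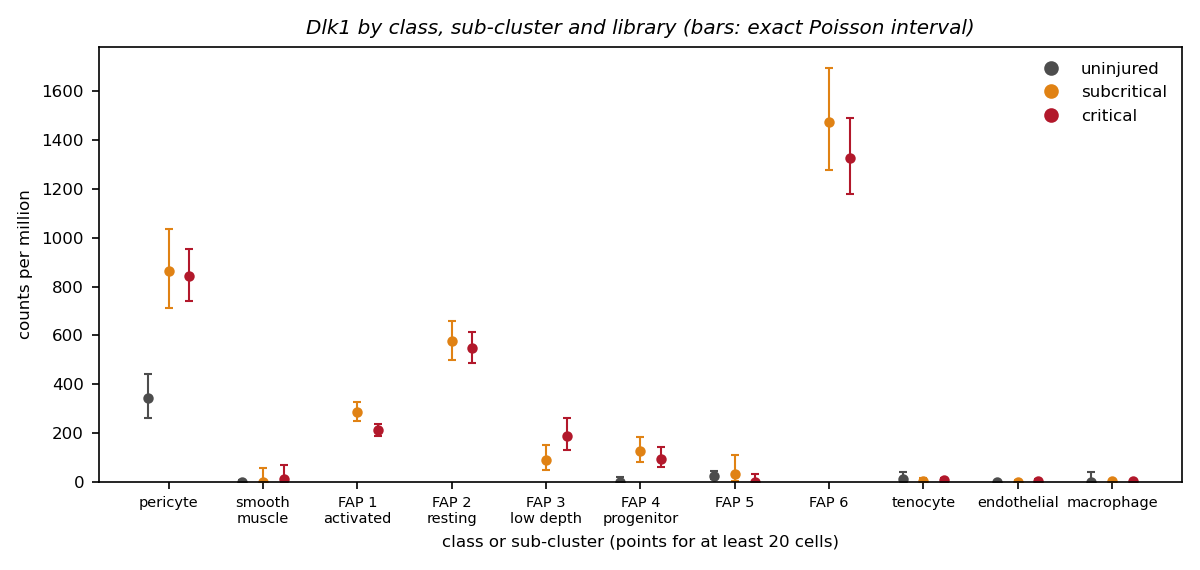
Level of Dlk1 in CPM in pericyte-like, smooth muscle-like, 6 FAP-like sub-cluster, tenocyte-like, endothelial-like and macrophage-like sums of at least 20 cells, 1 point per library with its exact 95% Poisson interval. The unnamed sub-cluster FAP 6 (1475 and 1327 CPM) and pericyte-like cells are highest, and smooth muscle-like, endothelial-like and macrophage-like cells lie near 0.

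Outside these cells Dlk1 was scarce. Tenocyte-like cells had 2, 1 and 4 counts in 27, 118 and 155 cells, endothelial-like 1, 0 and 3 and macrophage-like 0, 3 and 1. Myogenic-like cells, in which Dlk1 is also known during regeneration, had 0, 3 and 0 counts.

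Counted over the 8 members that averaged at least 5 CPM in FAP-like cells (all but Notch4 and Dll4), 5 were past a log2 fold of 1 upward and 0 downward in FAP-like cells of the critical against the uninjured library (Notch1, Notch3, Hey1, Heyl and Dlk1). Over all genes in that comparison 8.37% were higher and 10.6% lower. Apart from Dlk1 those members rest on 4 to 7 uninjured counts, so that their folds rest on few counts. The 5 became 2 with a pseudocount of 5 CPM. The median over the 8 was 1.14 against -0.08 over all genes. Between subcritical and uninjured, 2 of 8 were past the fold upward (Notch1 and Dlk1) and 0 downward, beside 7.93% and 10.8% of all genes. Between the injured libraries 0 of 8 were past it in either direction, beside 1.03% and 0.693%. The makeup of the class, given with Dlk1, differed between the uninjured and injured libraries, and its part in these counts was not tested.

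In mural-like cells all 10 members could be counted, and Dlk1 was the 1 member past the fold upward and Hes1 the 1 downward between critical and uninjured, where 17.2% of all genes were higher and 10.3% lower. Between subcritical and uninjured 2 were higher and 3 lower, beside 16.4% and 13.2%, and between critical and subcritical 2 and 1, beside 14.2% and 9.09%. Within pericyte-like cells alone, 1 was higher and 5 lower between critical and uninjured, beside 15.8% and 18.2% of genes. Between subcritical and uninjured pericyte-like cells the counts were 1 and 5, beside 14.2% and 22.5%, and between the injured libraries 2 and 1, beside 17.0% and 11.8%. Dll4, Hey1, Notch4 and Notch1 of pericyte-like cells were among the lower ones, at 51.6, 126, 63.1 and 143 CPM in the uninjured library and 10.1, 47.4, 30.4 and 71.0 in the critical. Beside them the summed level of 10 endothelial markers in pericyte-like cells, all detected, was 4328, 2192 and 1417 CPM, and its part in the result was not tested. A finer division of the mural-like class gave an unnamed sub-cluster of 22, 23 and 21 cells with Plvap, Pecam1 and Egfl7 among its top genes.

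Myogenic-like cells gave 1 member higher and 2 lower of 7 counted between critical and uninjured, where 30.4% and 27.0% of all genes were past the fold. Between subcritical and uninjured it was 2 higher and 3 lower of 8, beside 27.9% and 31.9%, and between the injured libraries 0 and 1 of 8, beside 17.2% and 10.9%. This class had 28 uninjured cells, and the members' shares are near the background.

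Macrophage-like cells allowed a test of Notch2 between the injured groups, with 4 animals in each. The subcritical animals had 76.4, 93.9, 78.8 and 81.9 CPM (82.7 ± 7.76, n = 4) and the critical 24.2, 87.0, 107 and 58.0 (69.1 ± 36.1, n = 4). The groups overlapped, with a log2 change of -0.22 (SE 0.242, edgeR adjusted p = 0.888). Notch2 was the 1 member tested and 0 were called, beside 1.07% of 3821 genes.

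Of the 44 other genes of the pathway (further ligands, glycosylation, cleavage, nuclear and turnover factors), 10 could be tested between animals in endothelial-like cells. Between critical and uninjured, edgeR called 1 higher and 1 lower of these, beside 9.26% and 7.62% of all genes tested. Between subcritical and uninjured it called 0 higher and 1 lower, beside 9.50% and 8.22%, and between the injured groups 0, beside 0.240% and 0.399%. Egfl7, a secreted endothelial protein that binds Notch and is also one of the markers by which the class was named, was 2265, 2002, 1926 and 1726 CPM in the uninjured animals (1980 ± 223, n = 4). It was 1470, 1482 and 1545 in the subcritical (1499 ± 40.4, n = 3) and 1434, 1493 and 1574 in the critical animals (1500 ± 70.1, n = 3), all below the uninjured ones. By edgeR it fell by 0.35 (SE 0.113, adjusted p = 0.0226) in critical and by 0.33 (SE 0.113, adjusted p = 0.0338) in subcritical against uninjured muscle. DESeq2 gave adjusted p = 0.0645 and 0.110. Without uninjured animal 1 the edgeR adjusted p was 0.0660 and 0.0847, and it ran from 0.0131 to 0.132 and from 0.0208 to 0.137 as each animal was left out. The critical call was also lost without uninjured animal 2 or critical animal 2 or 3, and, when animals were left out, the subcritical call was kept only without uninjured animal 4 or critical animal 3 or 4. Both calls were lost with at least 30 cells per animal, which drops uninjured animal 1, and with hashtags assigned by the leading share (edgeR adjusted p = 0.283 and 0.293). The subcritical call was also lost with classes by marker score (0.0785, edgeR adjusted p) and without dividing cells (0.0810). In all, 7 and 12 of 23 alternatives ended the calls.

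Adam10, the protease that makes the first cut in a bound receptor, was 64.7, 96.1, 109 and 76.5 CPM in the uninjured animals (86.5 ± 19.6, n = 4). The critical animals had 220, 56.9 and 193 CPM (157 ± 87.5, n = 3), from 27, 4 and 22 counts, so that 2 lay above all uninjured animals and 1 below them. Adam10 rose by 0.94 (SE 0.294, adjusted p = 0.0202) in critical against uninjured by edgeR. The call was lost under 6 of 23 alternatives. These were DESeq2 (adjusted p = 0.104), and by edgeR no filter on low counts (adjusted p = 0.0698), 10 cells per animal (0.101), hashtags assigned by the leading share (0.0578), and the fits without critical animal 2 (log2 change 0.65, adjusted p = 0.316) and without critical animal 4 (0.83, adjusted p = 0.150). The subcritical animals had 40.1, 94.6 and 119 CPM, a change of 0.05 against uninjured (edgeR adjusted p = 0.957). At an unadjusted p under 0.05 the comparisons of critical with uninjured, subcritical with uninjured and critical with subcritical had 3, 1 and 2 of the 10 pathway genes, beside 26.5%, 29.5% and 9.54% of all genes tested.

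In the classes compared by library alone, 0 of 32 other pathway genes were past the fold upward and 1 downward in FAP-like cells between critical and uninjured, beside 8.37% and 10.6% of all genes. Between subcritical and uninjured it was 1 higher and 1 lower of 32, beside 7.93% and 10.8%. The lower gene between critical and uninjured was Psen2, a subunit of the enzyme that makes the final cut, with a log2 fold of -1.16 from 56.5 to 24.6 CPM. Furin, which matures the receptors, had 35.8 and 70.4 CPM (0.96), and Maml2, a co-activator of the Notch complex, a fold of 0.97. In mural-like cells 7 were higher and 1 lower of 36 between critical and uninjured, where 17.2% and 10.3% of all genes were past the fold, so that the share that was higher is near the background. The lower one was Hey2, with 62 counts at 66.7 CPM against 10 counts at 26.7 CPM, a fold of -1.29. Within the mural clusters the uninjured and critical levels were 80.9 and 88.2 CPM in smooth muscle-like and 5.73 and 10.1 in pericyte-like cells. These rest on few critical counts, as the class had 10. Smooth muscle-like cells went from 76.5% to 25.8% of the class, and the part of this share in the fold was not tested. Dtx4 and Lfng had the largest mural-like folds upward, 2.07 and 2.01, but on 8 against 4 and 6 against 3 counts.

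Further ligands and targets of the endothelium lay in the same sub-clusters as the members or in the venous-like one. Jag2, a ligand akin to Jag1, stood at 229, 168 and 308 CPM in arterial-like cells. Dll1, a ligand akin to Dll4, was at 254, 175 and 128 CPM in venous-like cells, where Dll4 had at most 3 counts. Nrarp, a feedback target of Notch, was at 292, 252 and 296 CPM in arterial-like and 85.6, 76.0 and 99.3 in venous-like cells.

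The genes whose levels ran most like a member's were read from 24 class-and-library sums and 11232 genes, as Pearson's r of log2(CPM + 1). The sums share libraries, so these values only describe. For Notch3 they were Des (0.946), Map2 (0.925), Pdlim3 (0.921), Sgca (0.917) and Cap2 (0.916), and for Heyl Map2 (0.950), Sytl2 (0.942), Des (0.922), Srl (0.908) and Vstm4 (0.902). For Dll4 they were She (0.968), Grrp1 (0.963), Gimap8 (0.956), Jag2 (0.948) and Tmem255b (0.947). For Hey1 they were Hoxa7 (0.950), Atoh8 (0.940), Adamts9 (0.933), Cdh13 (0.925) and Ebf3 (0.923). Dlk1 had lower values, with Foxs1 at 0.891, Cacna1c at 0.884, Ednra at 0.866, Agtr1a at 0.865 and Aoc3 at 0.863. Des and Map2 were thus on the lists of both Notch3 and Heyl.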

How the data were processed

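Transcript counts and antibody counts were read from the authors' deposited filtered matrices, 1 per group, in which each value is a UMI count per gene and cell. They were written by cellranger 6.0.2 per the file headers. GRCm39, bcl2fastq and Cell Ranger are named in the submitters' processing notes.

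Cells passed with 200 or more genes, 500 or more UMIs and no more than 20% mitochondrial counts. As doublets, 60, 146 and 148 cells with several hashtags were left out. Scrublet marked 1, 23 and 51 cells, which were not left out for that mark; leaving out the 36, 61 and 73 cells with the highest scores was an alternative. Cells were clustered with scanpy 1.11.5 (2000 variable genes without the 10 members and the pathway list, 30 components, 15 neighbours, resolution 0.8) and named from marker lists. A cell went to an animal where 1 hashtag passed its threshold. The lowest counts that passed were 2, 2, 2 and 3 for uninjured animals 1 to 4. They were 2, 6, 6 and 3 for the subcritical and 3, 4, 3 and 3 for the critical animals. The leading-share alternative asked for at least 5 counts of the leading hashtag and 70% of all hashtag counts of the cell.

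Counts summed per animal (at least 20 cells) were tested by edgeR 4.0.16 quasi-likelihood (TMM, filterByExpr) in R 4.3.3, over all groups and genes, with Benjamini-Hochberg adjustment at 0.05; DESeq2 1.42.0 was an alternative. The test was tested on simulated data, where 6 unchanged genes were called. Mural-like, FAP-like and myogenic-like cells had too few tagged cells per animal, so counts summed per library were given as CPM and compared as log2(CPM + 1), with no test; a fold of 1 counts as past, for genes averaging at least 5 CPM. UMIs come from 1 library per group, so intervals cover counting error only.

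The members, the 44 pathway genes and the marker lists were chosen with earlier results of these data known. Named genes are the 10 members, the pathway genes called between animals, up to 3 per class with the largest absolute fold between libraries, and the 5 genes most correlated with each of 5 members. Of the pathway genes named by that rule, those of myogenic-like cells rest on 0 counts in 1 library and are left without a fold. Alternatives tried are given in the closing section.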

Additional observations from a re-analysis of the deposited data

How the results depend on the processing

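Of 361 values of single members between animals under the alternatives, 332 kept their direction and side of the threshold, 27 reversed and 2 became called. Of 911 values between libraries 842 stayed within counting error, 62 moved and 7 reversed, and of 21 thinned shares 9 stayed and 12 moved at 500 UMIs. In endothelial-like cells (critical against uninjured, subcritical against uninjured, critical against subcritical), the main edgeR fit called 423, 444 and 16 genes. Hashtags assigned by the leading share gave 170, 253 and 7 genes called by edgeR and 1 member, Dll4 in the second comparison. Cells of at least 1000 UMIs also gave 1 member there, and 291 genes were called there without dividing cells. Reversed log2 changes between animals were all of uncalled values. For critical against uninjured, Notch1 was -0.03 with no filter on low counts, -0.05 with cells of at least 1000 UMIs and -0.12 without arterial-like cells. For subcritical against uninjured, Notch1 was 0.01 and Hes1 0.24 by leading share, Notch1 0.20 and Notch4 0.05 without dividing cells, and Hey1 -0.00 with 10 cells per animal and -0.24 with 1000 UMIs. For critical against subcritical, Hey1 was -0.16 by leading share, Dll4 -0.01 with coarser clusters and -0.07 with classes by marker score, and without dividing cells Notch1 was -0.05, Dll4 -0.33 and Hey1 -0.46.

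As each animal was left out, the members called stayed at 0 to 0, and the genes called ran from 279 to 445 (lowest without critical animal 2), 281 to 481 (lowest without subcritical animal 4), 9 to 20, and 27 to 43 in macrophage-like cells. In the same order Notch1 ran from -0.03 to 0.18 and -0.23 to 0.00, Hey1 from -0.03 to 0.44, -0.09 to 0.39 and -0.19 to 0.28, and Dll4 in the last comparison from -0.24 to 0.37. Members past the fold between libraries numbered 2 with a pseudocount of 5 CPM for FAP-like critical against uninjured. For FAP-like subcritical against uninjured they were 5 with coarser clusters and 5 by marker score, and 1 for critical against subcritical with 1000 UMIs. For mural-like critical against uninjured 6 passed in pericyte-like cells only. For myogenic-like cells 3 passed under TMM and 3 by marker score (subcritical against uninjured), and 3 with 1000 UMIs (critical against subcritical). In endothelial-like cells 1 passed in each of the 2 comparisons with critical when sub-cluster shares were held, and 1 for subcritical against uninjured with 1000 UMIs and 1 with coarser clusters. Mural-like folds that reversed were Dll4 for subcritical against uninjured, -0.46 in pericyte-like cells and -1.09 without 10 top cells, and Dlk1 there, 0.00 in smooth muscle-like cells. For critical against subcritical, Notch4 was 0.00 in smooth muscle-like cells and 0.00 without 10 top cells, where Dll4 was 0.00 too, and Dlk1 in myogenic-like cells was 0.02 by marker score. The causes were not tested. TMM moved folds against uninjured by 0.14 and 0.15 in FAP-like, -0.17 and -0.14 in mural-like and 0.31 and 0.33 in myogenic-like cells (critical, then subcritical). The alternatives on the low-depth FAP-like cluster, single mural clusters, top cells and held shares were chosen after the data were seen. With the members kept among the clustering genes no myogenic-like class was named, the surface antibody alternative was not run, and glial-like folds were not given (5 and 15 injured cells). No paired analysis was possible because hashtag numbers are reagents and the labels pair no animals across groups. Depth limits the folds that rest on 15 or fewer uninjured counts, in FAP-like and myogenic-like cells.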
